A study of Mus musculus with 6 samples.

Results

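The subject is the collagens of dermal matrix and the proteins that fold, modify, cut and cross-link them. They were followed across cells sorted from mouse back skin for a Cdh5 lineage mark. The set holds 36 gene symbols, 13 collagen chains and 23 processing genes, chosen by name, and 35 of them were found among the 32285 gene rows. Leprel1 matched no row by symbol. RefSeq lists it as a synonym of P3h2, which is given apart below and counted nowhere. Of the 13 chains, those of types I, III and V build fibrils, whereas types VI, VIII, XII, XIV and XVI form microfibrils or networks or sit on fibril surfaces, so the set is wider than fibrillar collagen alone.

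All mice received tamoxifen, 200 µg per g, on day 17 after birth (PD17). Sorted tdTomato+ cells of their back skin were then used, and 3′ single-cell libraries were made, 1 mouse per library. WT telogen (2 libraries, PD20, resting hair follicles) and WT anagen (2 libraries, PD32, growing follicles) came from tdTomato;Cdh5-CreERT2;Krt14-H2BGFP mice on a C57BL/6;CD1 background. Alk1 KO telogen (2 libraries, PD25) came from Alk1 flox/flox;tdTomato;Cdh5-CreERT2 mice on C57BL/6. All 6 libraries shared the dose and the Cdh5-CreERT2 driver, which acts in endothelial and other VE-cadherin-expressing cells. The genotype field of the KO libraries reads wild type, while their titles and descriptions name the floxed allele. The sex of the mice is not given in the sources used here. The KO and WT libraries also differ in age, time since tamoxifen, background and the Krt14-H2BGFP allele, so genotype cannot be told apart from these. The WT telogen and WT anagen libraries differ in age and time since tamoxifen too, which cannot be told apart from hair stage.

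Total UMIs (unique molecular identifiers, each counting 1 captured transcript) ranged from 10615358 to 43317677 per library, lowest in both KO libraries. After the filters 20941 cells remained, 1713 to 5106 per library, with median UMIs per cell from 4371 to 6935. Any pair of libraries shared 2 to 13 barcodes, and 1 to 8 after the filters. Clusters were named from marker genes as fibroblast-like (585 cells), perineurial-like (2480), pericyte-like (510), Schwann-like (127), blood endothelial (EC)-like (6144), lymphatic EC-like (4003) and immune-like (3402). A further cluster of 2704 endothelial cells was led by Gkn3 and Sema3g and kept apart from the blood EC-like cells. Levels are given as CPM, the UMIs of a gene divided by the UMIs of all cells of 1 type in 1 library and multiplied by 1e+06. A 3′ tag counts a transcript once whatever its length, so no length scaling was applied. Ptprc+ immune-like cells are not known as a source of fibrillar collagen and served as the gauge of free RNA, the transcripts that leak from broken cells and enter every droplet. Their summed levels, and their levels of some single genes, stand beside those of the other types.

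Collagen chains enter the endoplasmic reticulum (ER), where prolines and lysines are hydroxylated and sugars are added before 3 chains wind into a triple helix. Serpinh1 encodes the collagen-specific chaperone that holds the helix until secretion. Outside the cell Bmp1 and Adamts2 remove the end propeptides, Pcolce enhances the first of these cuts, and the lysyl oxidases cross-link the fibrils. In skin, dermal fibroblasts are the main source of types I and III. Perineurial cells form the collagen-bearing sheath around nerve bundles, and endothelial cells chiefly lay down basement membrane collagens, which are not in this set.

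Promoters are shown for 3 members that carry the results, because the chain genes and their chaperone fell together in the Alk1 KO libraries. The sequences are RefSeq's (GRCm38.p6), run 5′ to 3′ on the strand of the gene, and cover 250 bases before to 50 bases after the annotated start. Capitals mark CCAAT (read on either strand, as ATTGG on the other) and TATAAA, motifs whose letters do not overlap here.
Col1a2 (chr6:4505368-4505667, plus strand): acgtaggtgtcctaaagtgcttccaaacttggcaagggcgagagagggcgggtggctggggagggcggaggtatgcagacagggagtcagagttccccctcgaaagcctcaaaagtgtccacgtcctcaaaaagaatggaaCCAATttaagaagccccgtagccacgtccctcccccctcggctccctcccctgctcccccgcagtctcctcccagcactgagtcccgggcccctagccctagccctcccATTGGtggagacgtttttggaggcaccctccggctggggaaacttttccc
Col3a1 (chr1:45311288-45311587, plus strand): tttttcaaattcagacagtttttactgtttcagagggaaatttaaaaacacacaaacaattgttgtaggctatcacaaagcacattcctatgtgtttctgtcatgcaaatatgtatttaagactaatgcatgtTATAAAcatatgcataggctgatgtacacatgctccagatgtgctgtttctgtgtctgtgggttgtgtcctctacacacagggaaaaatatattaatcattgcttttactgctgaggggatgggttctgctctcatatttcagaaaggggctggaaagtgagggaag
Serpinh1 (chr7:99353190-99353489, minus strand): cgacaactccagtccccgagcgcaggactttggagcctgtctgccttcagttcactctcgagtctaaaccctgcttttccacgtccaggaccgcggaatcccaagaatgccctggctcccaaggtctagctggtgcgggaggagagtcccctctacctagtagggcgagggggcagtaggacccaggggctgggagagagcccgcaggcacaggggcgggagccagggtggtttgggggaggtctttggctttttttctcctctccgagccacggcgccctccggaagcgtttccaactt
CCAAT began 109 bases before the start of Col1a2, with a further match on the other strand at the start itself. TATAAA began 117 bases before the start of Col3a1, and neither was found in the Serpinh1 window, which held GGGCGG 37 bases before the start. Of 24 members with an entry, 7 held CCAAT, against 37.9% of 27025 promoters, 4 held TATAAA (14.2% of all) and 19 held GGGCGG (35.9% of all). Searches for CAGACA (6 of 24 members, 21.0% of all) and GGCGCC (6 of 24, 12% of all), both strands in each case, completed the motifs. These are letter matches in a window and were not tested against the expression values.

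In WT skin the chains were far higher in fibroblast-like cells than in any other type. Their 13 levels summed to 83026 and 73879 CPM in WT telogen and 69814 and 56071 in WT anagen, that is 5.61 to 8.30% of all UMIs of these cells. Perineurial-like cells held 7700 and 8200 CPM in telogen and 6372 and 6026 in anagen. The sum in Schwann-like cells was 9647 and 10412 CPM in telogen and 4268 and 4721 in anagen. Schwann-like cells were few (107 in WT), and 35.4% of all 127 were marked as likely doublets, against 19.7% of fibroblast-like and 3.39% of perineurial-like cells. Pericyte-like cells summed to 1863 to 2698 CPM. Endothelial cells were lower again, at 36.4 to 397 CPM in blood EC-like cells and 68.4 to 177 in lymphatic EC-like cells, ranges that overlapped the 31.5 to 169 CPM of immune-like cells. The 22 processing genes were spread more evenly, from 695 to 876 CPM in immune-like cells, through 1617 to 1882 in blood EC-like cells, to 6880 to 9102 in fibroblast-like cells.

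**Figure D1:**
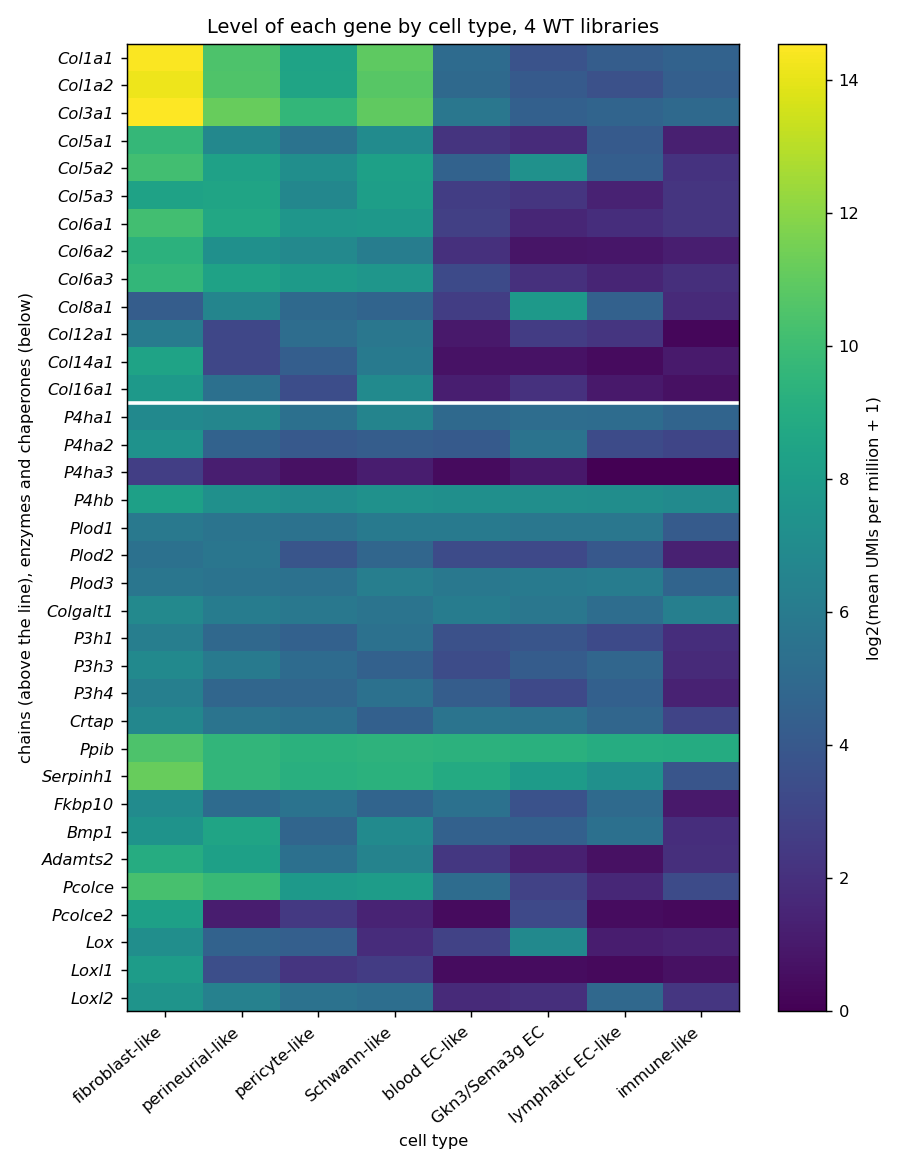
Level of each measured gene (rows) in each cell type (columns), as log2 of the mean CPM over the 4 WT libraries plus 1, with the 13 chains above the white line and the 22 processing genes below it. The chains were brightest in the fibroblast-like column, whereas Ppib, P4hb and, outside the immune-like column, Serpinh1 were present in every column.

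The sort was for a Cdh5 lineage mark. Cdh5 itself was 672 to 963 CPM in WT blood EC-like and 190 to 245 in WT perineurial-like cells. In fibroblast-like cells it was 21.1 to 38.8 CPM in WT and 9.71 and 0 in KO, beside 9.60 to 39.8 CPM in WT immune-like cells. The paper describes its fibroblast and immune populations as contaminating cells without Cdh5. All 11 fibroblast markers were detected in the fibroblast-like cells of every library, with summed levels of 12769 to 16840 CPM in WT and 8209 and 7480 in KO.

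Types I and III made up 91.7 to 93.0% of the chain UMIs in WT fibroblast-like cells. Col1a1 and Col1a2 encode the chains of the main fibril of dermis, and Col3a1 that of its finer companion. Col1a1 was 28869 and 21311 CPM in telogen, 23573 and 18328 in anagen and 1735 and 1798 in KO. Col1a2 was 22894 and 19233 CPM in telogen, 16612 and 14151 in anagen and 1237 and 1407 in KO. Col3a1 was 25427 and 27289.6 CPM in telogen, 24129.9 and 18943 in anagen and 453 and 414 in KO. The 4 WT libraries thus lay within a narrow band and both KO libraries far beneath it. In perineurial-like cells the same 3 genes reached 1288 to 2775 CPM in WT and made up 72.8 to 74.2% of chain UMIs, with type VI at 12.2 to 13.5% and type V at 11.1 to 11.4%. Pericyte-like cells gave types VI and V 17.5 to 29.2% and 8.36 to 15.6% of their chain UMIs.

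Against immune-like cells (edgeR quasi-likelihood test on the 4 WT libraries, with members left out of the clustering, called at adjusted p under 0.05 and a fold over 1.3), 34 of 35 members were higher in fibroblast-like cells, where 30.8% of all genes were called higher, and 0 were lower, where 32.2% of all genes were. The remaining member, Colgalt1, the galactosyltransferase for hydroxylysine, had a log2 difference of 0.36 (SE 0.18, adjusted p = 0.0842). In perineurial-like cells 30 members were higher and 1 lower (36.1% and 34.7% of all genes). Pericyte-like cells had 30 higher and 2 lower (30.7% and 31.3% of all genes), and Schwann-like cells 29 higher and 2 lower (23.6% and 29.9%). All 13 chains were among the higher members in each of these 4 types.

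Endothelial cells differed from immune-like cells mainly in the processing genes. In blood EC-like cells 15 of 35 members were higher and 1 lower, beside 31% and 31.7% of all genes, and 14 of the 15 were processing genes. Fkbp10 (log2 difference 5.05) and Serpinh1 (5.03, SE 0.26) had the largest differences. Serpinh1 was 486 and 529 CPM in telogen, 513 and 401 in anagen and 218 and 233 in KO. In immune-like cells it was 6.51 and 10.7 CPM in telogen, 12.7 and 22.2 in anagen and 1.88 and 8.92 in KO. The 1 chain called was Col5a2 (log2 difference 2.33, SE 0.33), a regulator of fibril width. Col1a1, Col1a2 and Col3a1 had log2 differences of -0.24, -0.27 and 0.13 (adjusted p = 0.680, 0.602 and 0.793). In lymphatic EC-like cells 15 members were higher and 5 lower (31.9% and 34% of all genes). The chains called higher there were Col8a1 (3.38), Col12a1 (3.30), Col5a1 (2.86) and Col5a2 (2.10 on the log2 scale), and Col1a2 was lower (-1.35). The call on Col5a1, Col8a1 and Col12a1 was not made in blood EC-like cells, and the difference between the 2 endothelial types was not tested.

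A cell-level reading gave the same order. After each cell was thinned to 1500 UMIs, 49.4% of telogen blood EC-like cells held a Serpinh1 UMI (435 of 881, 95% exact binomial interval 46.0 to 52.7%, 64 shallower cells left out; 80.7% unthinned). The share in telogen immune-like cells was 1% (27 of 2690, 161 left out; 5.89% unthinned), although their median depth was the greater, 12092 against 6043 UMIs. For Col1a1 the shares were 3.86% in blood EC-like and 4.05% in immune-like cells (9.52% and 20.0% unthinned), so the share in blood EC-like cells did not exceed the background. Thinned shares of Col1a1 were 97.9% in telogen fibroblast-like and 76.7% in telogen perineurial-like cells (99.1% and 97.5% unthinned). Intervals here cover counting error only.

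The Gkn3 and Sema3g cluster stood apart from the blood EC-like cells in Col8a1, a short-chain network collagen of vessel walls, and in Lox, the main lysyl oxidase. Col8a1 was 170 and 222 CPM in WT telogen, 204 and 296 in WT anagen and 68.4 and 60.8 in Alk1 KO. It took 32.0 to 60.6% of the cluster's chain UMIs in WT, against 2.09 to 7.17% in WT blood EC-like cells and 14.0 to 23.6% in WT lymphatic EC-like cells. Lox was 99.6 and 182 CPM in WT telogen, 82.9 and 104 in WT anagen and 145 and 89.5 in Alk1 KO, against 1.56 to 11.5 in the blood EC-like cells of all 6 libraries. The KO libraries lay inside the WT range for Lox and beneath it for Col8a1. No test was run on this cluster by itself.

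**Figure D2:**
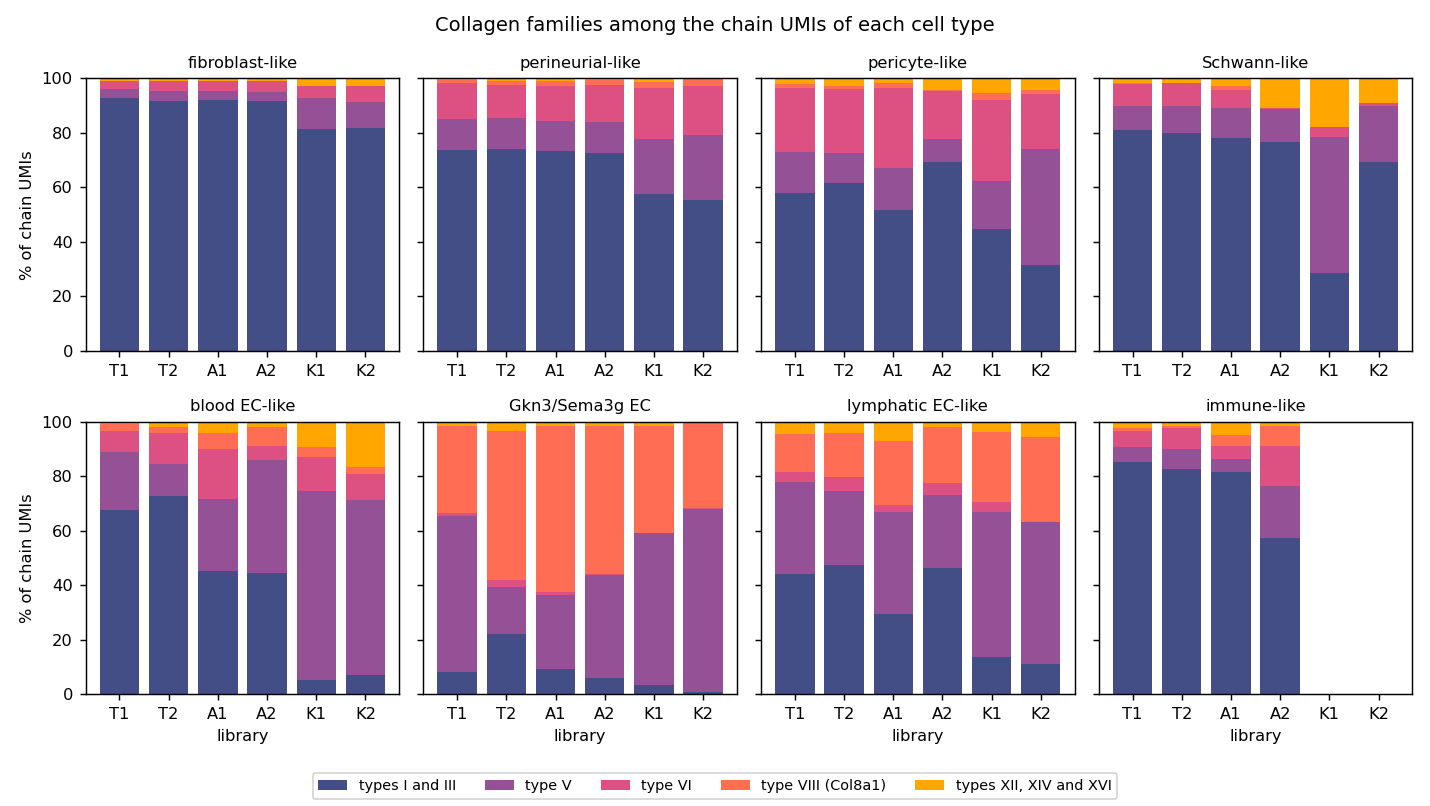
Share (%) of collagen-chain UMIs held by types I and III, V, VI, VIII and the fibril-associated types XII, XIV and XVI, by cell type (panels) and library (T, WT telogen; A, WT anagen; K, Alk1 KO); columns with fewer than 20 chain UMIs are left blank. Types I and III took 91.7 to 93.0% of the columns of WT fibroblast-like cells and 81.5 and 81.7% in the KO, while the Gkn3 and Sema3g cluster was dominated by types VIII and V.

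Perineurial-like cells were set against fibroblast-like cells directly, since both showed chains well above the immune-like level. Of 35 members 31 were lower in perineurial-like cells and 2 higher, where 23.3% and 22.7% of all genes were called, with a median log2 difference of -2.83 over the chains and -1.48 over the processing genes (0.04 over all genes tested). Col8a1 was the chain that was higher, by 2.43 on the log2 scale, and Bmp1, the procollagen C-proteinase, the processing gene, by 0.68. Bmp1 was 402 and 382 CPM in telogen, 331 and 342 in anagen and 201 and 214 in KO in perineurial-like cells, and 206 and 175 CPM in telogen, 173 and 150.1 in anagen and 119.8 and 61.4 in KO in fibroblast-like cells. The WT ranges of the 2 types did not overlap for Bmp1. Col5a3 and Plod2 were not called.

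Between hair stages few members were called, with 2 libraries per stage. In fibroblast-like cells 1 of 34 tested members was called, Col8a1, which was higher in anagen, beside 0.196% of all genes called higher and 0.0109% lower. Col8a1 was 3.72 and 3.06 CPM in telogen, 35.8 and 30.4 in anagen and 3.24 and 4.1 in KO (anagen over telogen, log2 fold change 3.35, SE 0.34, adjusted p = 0.0163). Both anagen libraries stood well above the telogen and KO libraries, and without the likely doublets the call was lost (adjusted p = 0.0654). In all 13 members had an unadjusted p under 0.05, against 12.4% of all genes, and 27 of the 34 had fitted values under 0. The median log2 change was -0.21 over the chains and -0.33 over the processing genes, with 0.00 over all genes. Lox, 118 and 70.0 CPM in anagen against 238 and 165 in telogen, showed -1.02 on the log2 scale (SE 0.29, adjusted p = 0.215) and the stages did not overlap. Among 25 tested of 26 partner genes (small proteoglycans, matricellular proteins, ER export factors and collagen receptors) Thbs2, a matricellular protein, was the only one called, lower in anagen (log2 fold change -1.32, SE 0.15, adjusted p = 0.0374). All 12 immediate-early and heat-shock genes had fitted values above 0 in anagen, with a median log2 change of 0.81. Of these 9 had an unadjusted p under 0.05 and 1 was called higher. Their part in the stage result was not tested.

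No member was called between stages in the other types with edgeR. Perineurial-like cells (0.86% of all genes higher, 0.125% lower) had 9 of 33 members at an unadjusted p under 0.05 (27.3%, against 14.5% of all genes) and 0 called with DESeq2. Pericyte-like cells (0% and 0.0464%) had 2 of 31 at that level (6.45% against 6.12%), and 0 with DESeq2. Lymphatic EC-like cells (0.973% and 0.279%) had 8 of 23 (34.8% against 20.9%), and 0 with DESeq2. Blood EC-like cells (0% and 0%) had 12 of 29 (41.4% against 12.96%), and 4 with DESeq2. Immune-like cells (0% and 0%) had 5 of 26 (19.2% against 15.6%), and 1 with DESeq2. The median over the chains was -0.29 in perineurial-like and -0.22 in pericyte-like cells but -2.25 in blood EC-like, -0.66 in lymphatic EC-like and -1.15 in immune-like cells. Chain sums in blood EC-like cells went from 193 and 397 CPM in telogen to 36.4 and 69.2 in anagen, and those in immune-like cells from 96.2 and 169 to 31.5 and 79.6. Fibroblast-like cells were 4.45 and 3.99% of the kept cells in telogen and 1.74% in both anagen libraries. The part that free RNA had in these lower endothelial values was not tested. Of the same 12 immediate-early and heat-shock genes, 12 had fitted values above 0 in perineurial-like, 11 in immune-like and 10 in blood EC-like cells. In pericyte-like and in lymphatic EC-like cells 8 did. At an unadjusted p under 0.05 were 6 in perineurial-like, 8 in immune-like, 2 in blood EC-like, 1 in pericyte-like and 4 in lymphatic EC-like cells. Their part was likewise not tested.

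**Figure D3:**
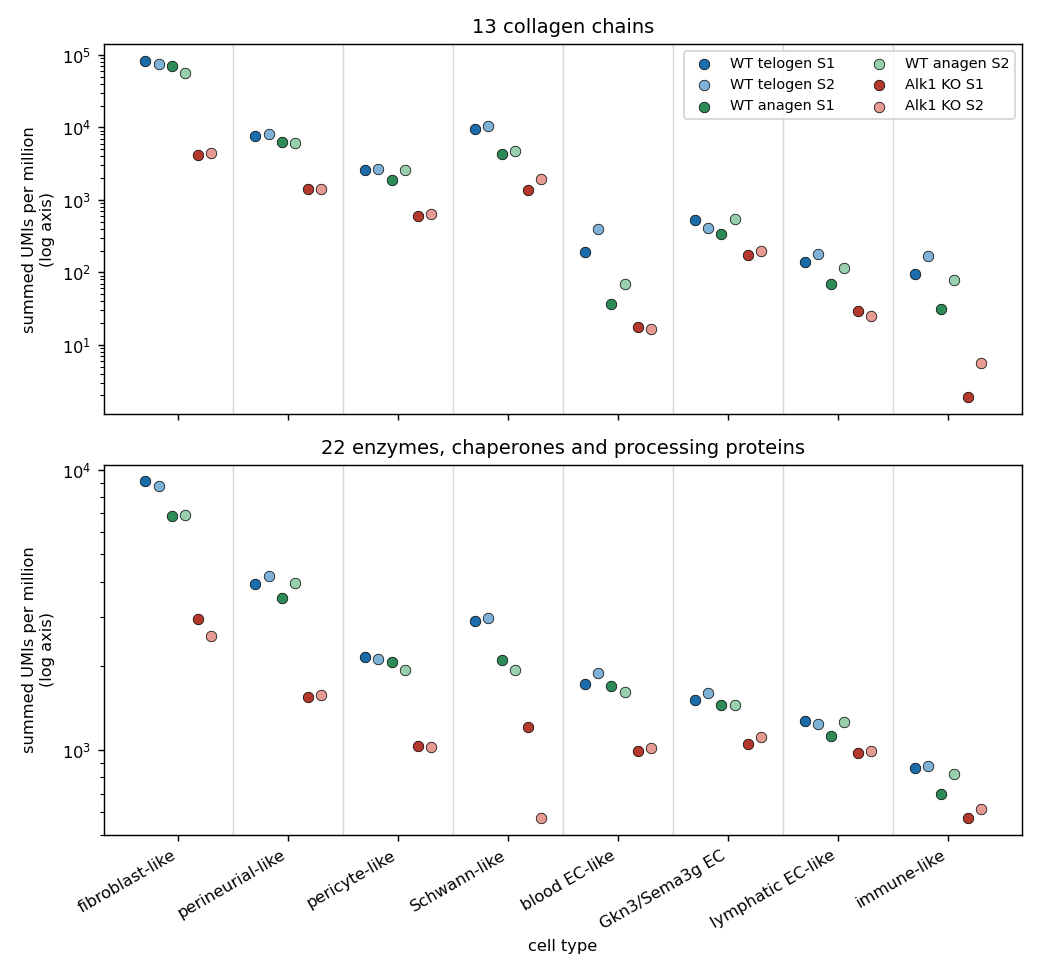
Summed CPM (log axis) of the 13 chains (upper panel) and the 22 processing genes (lower panel) in each cell type, with 1 point per library. The KO points (red) lay under all WT points in every type for both sums, by 18.2-fold against WT telogen for the chains of fibroblast-like cells and by 1.27-fold for the processing genes of lymphatic EC-like cells.

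The Alk1 KO libraries were compared with WT telogen, the same 2 control libraries as for the stages. Acvrl1, which encodes Alk1, was 157 and 129 CPM in telogen, 110.2 and 117 in anagen and 109 and 102 in KO in blood EC-like cells (log2 fold change -0.49, SE 0.16, adjusted p = 0.0342). Here and in what follows, values in brackets after levels are edgeR log2 fold changes of KO over WT telogen. In the other types the level of Acvrl1 in WT telogen and KO was 36.8 and 41.2 against 22.7 and 18.4 CPM in fibroblast-like (-1.29, SE 0.35, adjusted p = 0.0210), 17.0 and 11.4 against 13.2 and 0 in perineurial-like (-0.84, SE 0.82, adjusted p = 0.507) and 108 and 88.3 against 15.5 and 46.4 in pericyte-like cells (-1.89, SE 0.44, adjusted p = 0.0469). In lymphatic EC-like cells it was 72.6 and 58.2 against 68.5 and 48.1 CPM (-0.23, SE 0.19, adjusted p = 0.415), and in immune-like cells 39.1 and 35.5 against 7.5 and 21.1 (-1.26, SE 0.39, adjusted p = 0.110). The sources used here do not name the deleted exons, and 3′ tags need not fall in them, so these counts do not check the deletion.

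The summed levels of chains and of processing genes were lower in the KO than in WT telogen in every type measured. By fold the chain sum differed most in immune-like cells (35.1-fold, on 1 and 7 KO UMIs), then in fibroblast-like cells, which held the highest levels. In fibroblast-like cells it was 83026 and 73879 CPM in WT telogen and 4202 and 4431 in KO, an 18.2-fold difference, while the processing sum went from 9102 and 8737 to 2942 and 2556 (3.24-fold). The number of chain UMIs per processing UMI thus went from 9.12 and 8.46 to 1.43 and 1.73. The median cell gave 5.81 and 6.50% of its UMIs to chains in WT telogen and 0.295 and 0.419% in KO. Of 33 members tested, 30 were lower and 1 higher, where 21.4% and 17.2% of all genes were called. The median log2 fold change was -4.10 over the 12 chains and -2.63 over the 21 processing genes tested, with -0.06 over all genes. The 2 KO libraries lay outside the 2 WT telogen libraries for all 31 called members. That largely follows from the call itself and is no further evidence.

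The 3 major fibrillar chains fell the most in molecules. Their values stand above, and the tests gave -4.17 on the log2 scale (SE 0.28, adjusted p = 1.28e-04) for Col1a1, -4.33, SE 0.27, adjusted p = 9.15e-05 for Col1a2 and -6.26, SE 0.29, adjusted p = 7.48e-05 for Col3a1. Types I and III made up 93.0 and 91.8% of the chain UMIs in WT telogen and 81.5 and 81.7% in KO, and type V made up 3.11 and 3.52% in WT telogen and 11.2 and 9.52% in KO, with no test on the shares. Col5a1, which nucleates fibrils, was 988 and 962 CPM in telogen, 792 and 584 in anagen and 84.2 and 67.6 in KO (-4.03, SE 0.26, adjusted p = 1.02e-04). Col5a2 was 1252 and 1271 CPM in telogen, 1079 and 938 in anagen and 366 and 342 in KO (-2.17, SE 0.22, adjusted p = 4.05e-04). Its fall was the second smallest among the chains. Col5a3 was 339 and 370.1 CPM in telogen, 286 and 311 in anagen and 19.4 and 12.3 in KO (-4.88, SE 0.30, adjusted p = 9.59e-05).

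Type VI chains assemble together into beaded microfibrils around cells. Col6a1 was 1060.1 and 1228 CPM in telogen, 1174 and 1056 in anagen and 136 and 188 in KO (-3.15, SE 0.25, adjusted p = 1.83e-04). Col6a2 was 576 and 675 CPM in telogen, 696 and 642 in anagen and 6.47 and 45.1 in KO (-4.79, SE 0.49, adjusted p = 4.30e-04). Col6a3 was 898 and 879 CPM in telogen, 822 and 571 in anagen and 45.3 and 34.8 in KO (-4.83, SE 0.27, adjusted p = 9.15e-05). All 3 were lower in both KO libraries, and Col6a2 varied between these by the most, on 2 and 22 UMIs. The fibril-associated chains were lower too. Col12a1 was 83.4 and 82.4 CPM in telogen, 48 and 44.7 in anagen and 22.7 and 28.7 in KO (-2.0, SE 0.28, adjusted p = 0.00138). Col14a1 was 327 and 369 CPM in telogen, 379.6 and 286 in anagen and 45.3 and 18.4 in KO (-3.88, SE 0.36, adjusted p = 3.40e-04). Col16a1 was 309 and 206 CPM in telogen, 187 and 186 in anagen and 48.6 and 71.7 in KO (-2.41, SE 0.31, adjusted p = 0.00106). Of these Col12a1 changed least. The level of Col8a1, 3.24 and 4.10 CPM in KO, stood near its telogen values and was not tested.

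Among the hydroxylases, P4ha1 to P4ha3 are alternative catalytic subunits of prolyl 4-hydroxylase and P4hb, protein disulfide isomerase, is the shared subunit with other ER roles. P4ha1 was 138 and 133 CPM in telogen, 111 and 92.7 in anagen and 48.6 and 43 in KO (-1.92, SE 0.24, adjusted p = 0.00106). P4ha2 was 255 and 189 CPM in telogen, 122 and 101 in anagen and 45.3 and 32.8 in KO (-2.88, SE 0.30, adjusted p = 4.57e-04). P4hb was 362 and 369 CPM in telogen, 244 and 245 in anagen and 126 and 127 in KO (-1.87, SE 0.21, adjusted p = 6.24e-04). Each was lower in KO, and P4ha3, at 7.59 CPM or less in every library, was not tested. The lysyl hydroxylases Plod1 to Plod3 prepare cross-link sites. Plod1 was 66.1 and 67.1 CPM in telogen, 50.9 and 52.3 in anagen and 38.8 and 32.8 in KO (-1.25, SE 0.27, adjusted p = 0.00869). Plod2 was 19.4 and 39.8 CPM in telogen, 50.9 and 55.6 in anagen and 0 and 4.1 in KO. With 2 UMIs in KO, its ratio of telogen to KO was 12.2 (95% counting interval 3.32 to 102, adjusted p = 0.0107). Plod3, with 47.5 and 49.98 CPM in telogen and 32.4 and 49.1 in KO, was not called (-0.56, SE 0.29, adjusted p = 0.155). Colgalt1 was 122 and 149 CPM in telogen, 78.2 and 116 in anagen and 35.6 and 63.5 in KO (-1.74, SE 0.29, adjusted p = 0.00286).

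The prolyl 3-hydroxylase complex of P3h1, Crtap and Ppib also speeds helix folding. P3h1 was 107 and 94.3 CPM in telogen, 46.2 and 49.7 in anagen and 19.4 and 14.3 in KO (-2.96, SE 0.31, adjusted p = 4.84e-04). Crtap was 119.8 and 103 CPM in telogen, 111 and 91.9 in anagen and 35.6 and 6.14 in KO (-2.95, SE 0.51, adjusted p = 0.00340). Ppib was 1556 and 1673 CPM in telogen, 1180.4 and 1248 in anagen and 223 and 178 in KO (-3.35, SE 0.25, adjusted p = 1.41e-04). All 3 subunits were lower in both KO libraries. P3h3 and P3h4 act with Plod1 on helix lysines. P3h3 was 134 and 119 CPM in telogen, 106 and 121 in anagen and 35.6 and 26.6 in KO (-2.40, SE 0.28, adjusted p = 7.22e-04). P3h4 was 131 and 77.3 CPM in telogen, 43.3 and 58.2 in anagen and 3.24 and 2.05 in KO, a ratio of telogen to KO of 40.5 (95% counting interval 11.1 to 335) on 2 KO UMIs. The fall of the collagen chaperone was near the median of the chains. Serpinh1 was 2667 and 2548 CPM in telogen, 1925 and 1918 in anagen and 207 and 197 in KO (-4.03, SE 0.24, adjusted p = 9.15e-05). Fkbp10, an ER prolyl isomerase, was 155 and 124 CPM in telogen, 127 and 116 in anagen and 25.9 and 18.4 in KO (-3.03, SE 0.31, adjusted p = 4.51e-04).

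Outside the cell, the propeptidases changed less than the chains. Bmp1, whose values stand above, showed -1.45 on the log2 scale (SE 0.32, adjusted p = 0.00962). Adamts2, the N-propeptidase, was 674 and 589 CPM in telogen, 387 and 392 in anagen and 363 and 428 in KO (-1.01, SE 0.21, adjusted p = 0.00789), a call that was lost without WT telogen S1 (adjusted p = 0.0990). Of the 2 enhancers of Bmp1, Pcolce was 1273 and 1221 CPM in telogen, 1256 and 1337 in anagen and 104 and 45.1 in KO (-4.45, SE 0.38, adjusted p = 2.42e-04). Pcolce2, by contrast, was 350.2 and 306 CPM in telogen, 274 and 279 in anagen and 330.2 and 342 in KO (-0.30, SE 0.21, adjusted p = 0.270) and was not called. Of the lysyl oxidases, Loxl1 was 270.1 and 319 CPM in telogen, 240.2 and 215 in anagen and 71.2 and 43 in KO (-2.75, SE 0.29, adjusted p = 4.75e-04). Loxl2 was 206 and 222 CPM in telogen, 176 and 141 in anagen and 55 and 34.8 in KO (-2.63, SE 0.28, adjusted p = 4.84e-04). Lox went the other way. It was 238 and 165 CPM in telogen, 118 and 69.98 in anagen and 1023 and 807 in KO (log2 fold change 1.85, SE 0.27, adjusted p = 0.00175), and both KO libraries exceeded all 4 WT libraries.

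Beside these changes, 9 of 12 immediate-early and heat-shock genes were higher and 1 lower in the KO fibroblast-like cells, where 17.2% and 21.4% of all genes were called. The median UMI count of these cells was 8552 and 6277 in KO against 16362 and 15960 in WT telogen. The part of these genes and of this depth in the result was not tested. The 11 fibroblast markers, whose sums stand above, did not all move alike. Pdgfra was 149 and 154 CPM in WT telogen and 634 and 491 in KO, and Serpinf1 1201 and 1175 against 317 and 299. Immune markers (12) summed to 60.3 and 146 CPM in these cells in WT telogen and 9.71 and 6.14 in KO, and 4 adipocyte markers to 1.24 and 1.36 against 9.71 and 371. Their part was likewise not tested. Immune-like cells, the gauge, held 1 and 7 chain UMIs in all in the KO libraries. Without the likely doublets each of the 31 calls was kept.

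Of the 26 partner genes 25 were tested in fibroblast-like cells, 11 lower and 4 higher, where 21.4% and 17.2% of all genes were called. The count of higher ones stood near that share. Postn, which helps assemble collagen fibrils, was 812 and 1093 CPM in WT telogen and 42.1 and 43.0 in KO (-4.82 on the log2 scale). Sparc, a collagen-binding protein, fell by 3.78 on that scale, Fn1 by 3.97, Lum by 3.43 and Creb3l1, an ER-resident transcription factor for collagen genes, by 2.38. Fmod, a small proteoglycan that sits on fibrils as Lum does, was higher, with 11.6 and 7.15 CPM in WT telogen, 10.4 and 88.5 in WT anagen and 178 and 207 in KO (4.04). These 6 had the smallest p of the 15 called.

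Perineurial-like cells showed the same direction at a smaller size. The chain sum was 7700 and 8200 CPM in WT telogen and 1418 and 1413 in KO, a 5.62-fold difference, and the processing sum 3932 and 4173 against 1543 and 1575 (2.60-fold). Of 32 members tested 18 were lower and 2 higher, where 11.3% and 10.2% of all genes were called. The median log2 fold change was -2.10 over the 12 chains and -0.84 over the 20 processing genes (-0.76 with Loxl1, which had 0 UMIs in KO, at its bound), against -0.06 over all genes. Only 122 KO cells were of this type, 4.32 and 2.45% of the kept cells, against 16.5 and 17.5% in WT telogen. Lypd2, one of 12 perineurial markers, was 473 and 591 CPM in WT telogen and 3.29 and 0 in KO, while the marker sum was 7266 and 7565 against 7183 and 6822. That sum held markers that moved in both directions. Krt19 was 627 and 557 CPM in WT telogen and 109 and 203 in KO, and Slc6a13 213 and 173 against 85.6 and 23.2. Thbs4 was 479 and 400 CPM against 1247 and 955, and Ntn4 59.1 and 46.3 against 207 and 208. The part of these marker changes was not tested. Cell by cell, the lower quartile of the share of UMIs in chains was 0.482 and 0.501% in WT telogen, and the upper quartile in KO was 0.200 and 0.210%.

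**Figure D4:**
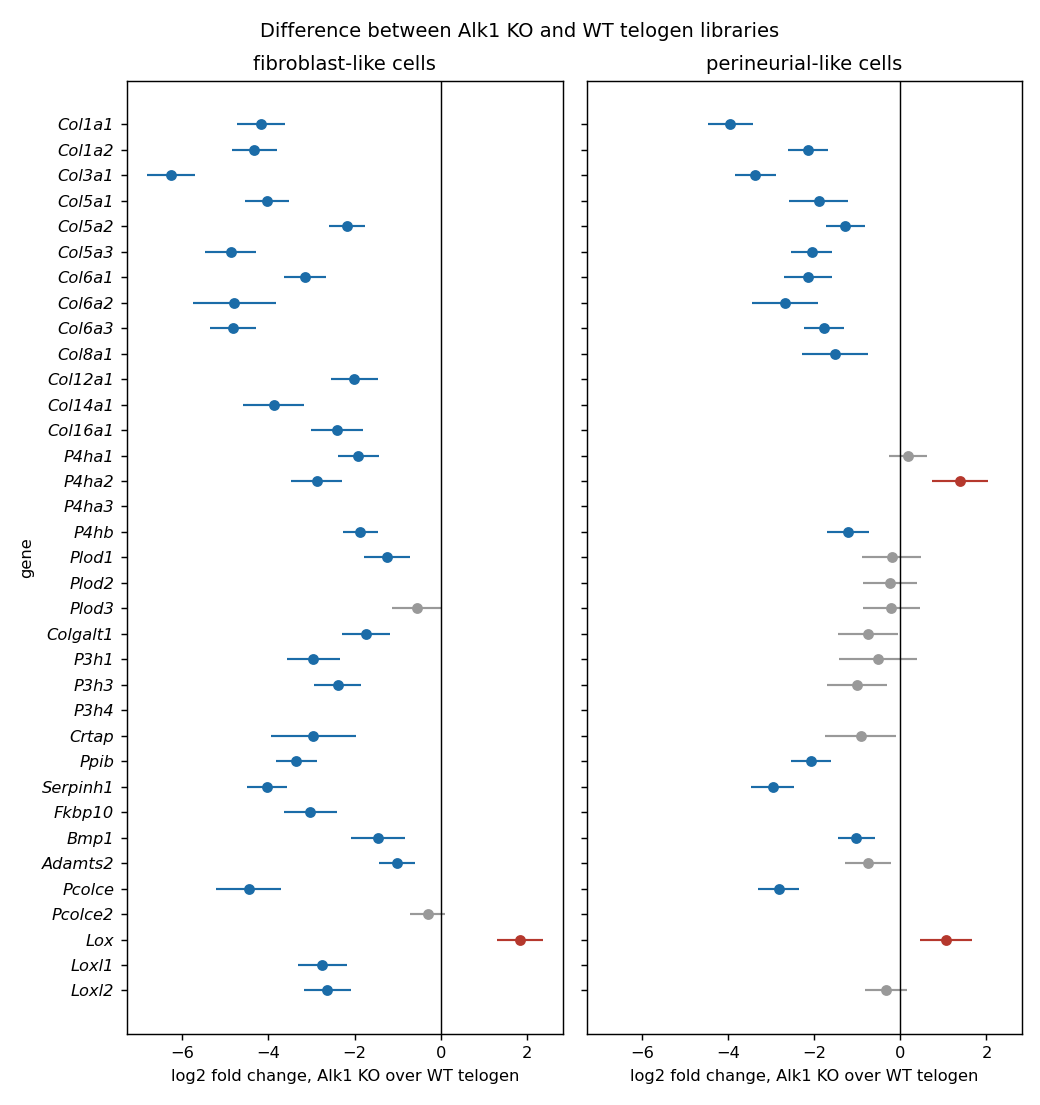
Log2 fold change of each member, Alk1 KO over WT telogen, in fibroblast-like (left) and perineurial-like cells (right), with 95% intervals from the edgeR fit (2 against 2 libraries); blue, called lower; red, called higher; grey, not called; members untested or with 3 or fewer KO UMIs have no point. Nearly all points lay left of 0, and Lox was red in both panels, at 1.85 and 1.07.

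Within the chains of perineurial-like cells Col1a1 and Col1a2 parted. Col1a1 was 1509.7 and 1503 CPM in telogen, 1422 and 1288 in anagen and 88.8 and 127 in KO (-3.95, SE 0.26, adjusted p = 2.87e-07). Col1a2 was 1645 and 1803 CPM in telogen, 1294 and 1289 in anagen and 451 and 382 in KO (-2.14, SE 0.23, adjusted p = 1.82e-05). The number of Col1a1 UMIs per Col1a2 UMI was 0.92, 0.83, 1.10 and 1 in the WT libraries and 0.20 and 0.33 in KO. Col3a1 was 2521 and 2775 CPM in telogen, 1953 and 1810.5 in anagen and 276 and 272 in KO (-3.37, SE 0.24, adjusted p = 4.40e-07). Col5a1 was 117 and 135 CPM in telogen, 105 and 82.1 in anagen and 19.7 and 63.7 in KO (-1.89, SE 0.35, adjusted p = 0.00129). Col5a2 was 348 and 411 CPM in telogen, 268 and 271 in anagen and 174 and 156 in KO (-1.28, SE 0.23, adjusted p = 0.00105). Both type V chains named here kept more of their telogen level than Col1a1 did. Col5a3 was 405 and 388 CPM in telogen, 334 and 333 in anagen and 92.1 and 116 in KO (-2.06, SE 0.24, adjusted p = 3.20e-05). Col6a1 was 478 and 477 CPM in telogen, 356 and 383 in anagen and 148 and 69.5 in KO (-2.14, SE 0.29, adjusted p = 1e-04). Col6a2 was 159.6 and 175 CPM in telogen, 151 and 153 in anagen and 9.87 and 57.9 in KO (-2.69, SE 0.39, adjusted p = 1.90e-04). The KO libraries did not overlap the telogen libraries in any of them.

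Col6a3 was 393 and 349 CPM in telogen, 322 and 278 in anagen and 109 and 127 in KO in perineurial-like cells (-1.77, SE 0.23, adjusted p = 9.21e-05). Col8a1 was 69.6 and 109.8 CPM in telogen, 116 and 94.7 in anagen and 29.6 and 40.5 in KO (-1.51, SE 0.39, adjusted p = 0.0117). The Col8a1 call was lost under 3 of 14 alternatives, among them leaving out WT telogen S2. Col16a1 was 39.8 and 50.7 CPM in telogen, 40.1 and 31.5 in anagen and 9.87 and 0 in KO, a ratio of telogen to KO of 7.30 (95% counting interval 2.48 to 35.5) on 3 KO UMIs. Col12a1, at 9.42 and 10.6 CPM in telogen and 9.87 and 0 in KO, was not called, and Col14a1 (at most 13.8 CPM) was not tested. Of the processing genes, Serpinh1 was 819 and 812 CPM in telogen, 680.3 and 711 in anagen and 88.8 and 145 in KO (-2.97, SE 0.26, adjusted p = 2.55e-06). Ppib was 809 and 844 CPM in telogen, 733 and 714 in anagen and 174 and 261 in KO (-2.07, SE 0.24, adjusted p = 2.84e-05). Pcolce was 794 and 878 CPM in telogen, 744 and 1083 in anagen and 125 and 127 in KO (-2.83, SE 0.24, adjusted p = 2.32e-06). These 3 fell the most among the processing genes with more than 3 KO UMIs. P4hb was 180.2 and 192 CPM in telogen, 119 and 142 in anagen and 98.7 and 63.7 in KO (-1.22, SE 0.25, adjusted p = 0.00257). Bmp1 showed -1.03 on the log2 scale (SE 0.22, adjusted p = 0.00324), lost without WT telogen S1 (0.0534).

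P3h4 was 20.7 and 29.6 CPM in telogen, 22.4 and 33.8 in anagen and 3.29 and 5.79 in KO in perineurial-like cells, a ratio of 6.13 (1.68 to 50.9) on 2 KO UMIs. Fkbp10 was 28.5 and 27 CPM in telogen, 30.2 and 46.6 in anagen and 0 and 5.79 in KO, a ratio of 13.2 (2.34 to 523) on 1 KO UMI. Both calls were lost with DESeq2. In the other direction P4ha2 was 27.7 and 22.3 CPM in telogen, 14.6 and 24.9 in anagen and 59.2 and 86.9 in KO (log2 fold change 1.39, SE 0.33, adjusted p = 0.00728), lost under 2 of 14 alternatives, among them leaving out WT telogen S2. Lox was 29.3 and 32.3 CPM in telogen, 10.9 and 17.7 in anagen and 72.4 and 63.7 in KO (log2 fold change 1.07, SE 0.31, adjusted p = 0.0224), lost under 5, among them leaving out either WT telogen library or KO S1. P4ha1, Plod2 and Loxl2 were not called. P4ha1 was 98.9 and 117 CPM in telogen, 97.4 and 89 in anagen and 125 and 139 in KO (log2 fold change 0.17, 95% interval -0.27 to 0.61). Plod2 was 47.4 and 50.3 CPM in telogen, 52.1 and 54.1 in anagen and 42.8 and 46.3 in KO (-0.24, -0.87 to 0.38). Loxl2 was 93.4 and 104 CPM in telogen, 75.5 and 56.9 in anagen and 88.8 and 75.3 in KO (-0.34, -0.83 to 0.15). Both KO libraries lay above all WT libraries for P4ha1 and under them for Plod2, by margins smaller than these intervals, and inside the WT range for Loxl2. Of the partner genes 9 of 23 were lower and 1 higher, where 11.3% and 10.2% of all genes were called. The 6 with the smallest p all fell: Postn by 4.65, Lum by 4.31, Mrc2 by 3.40, Fn1 by 2.32, Bgn by 1.63 and Prelp by 1.62 on the log2 scale.

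The KO effects in the 2 types were compared with an interaction term. Of 34 members 10 had a smaller fall or a rise in perineurial-like cells and 0 the reverse, where 2.21% and 2.24% of all genes were called. The largest differences were in P4ha2 (4.17), Col6a3 (2.96), Col3a1 (2.79) and Col5a3 (2.73 on the log2 scale). Col1a1, with -3.95 in perineurial-like and -4.17 in fibroblast-like cells, was not among them. The count fell to 4 without WT telogen S1 and to 2 without WT telogen S2.

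Blood EC-like cells were lower in KO for 20 of 26 members tested and higher for 0, where 20.9% and 16.9% of all genes were called. This type joined 4 clusters whose mix differed between the groups. The cluster led by Sapcd2 and Pimreg gave 30 and 40 cells in WT telogen and 0 and 1 in KO. What this mix contributed was not tested. The processing sum was 1729 and 1882 CPM in WT telogen, 1699 and 1617 in WT anagen and 992 and 1022 in KO, and the immune-like sum 865 and 876, 695 and 819, and 574 and 618. Serpinh1, whose WT level lay well above the gauge, was 486 and 529 CPM in telogen, 513 and 401 in anagen and 218 and 233 in KO (log2 fold change -1.22, SE 0.14, adjusted p = 3.33e-04), a 2.33-fold fall. Its thinned share of cells fell from 49.4 to 23.9% (203 of 849; 44.7% unthinned), with 0 of 170 in KO immune-like cells, for which a limit of 3 counts allows up to 1.76% and the exact interval up to 2.15%. Ppib was 649.8 and 685 CPM in telogen, 652 and 647 in anagen and 334 and 319 in KO (-1.08, SE 0.14, adjusted p = 6.62e-04). P4hb was 170.4 and 181 CPM in telogen, 133 and 128 in anagen and 121 and 119 in KO (-0.60, SE 0.13, adjusted p = 0.00729). Pcolce was 24.2 and 37.3 CPM in telogen, 36.2 and 39 in anagen and 5.19 and 4.3 in KO (-2.72, SE 0.31, adjusted p = 3.37e-04). All 4 lay lower in both KO libraries than in all 4 WT libraries.

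Falls were also called in other processing genes of blood EC-like cells. Crtap was 42.7 and 41.8 CPM in telogen, 50.2 and 54.4 in anagen and 24 and 26.6 in KO (-0.79, SE 0.17, adjusted p = 0.00695). Colgalt1 was 63.1 and 77.5 CPM in telogen, 52.7 and 74.7 in anagen and 38.6 and 54.7 in KO (-0.65, SE 0.18, adjusted p = 0.0215). Fkbp10 was 35.6 and 38.9 CPM in telogen, 42.1 and 49.3 in anagen and 23.3 and 23 in KO (-0.73, SE 0.18, adjusted p = 0.0124). These 3 calls were lost with DESeq2. P3h3 was 6.87 and 15.9 CPM in telogen, 5.09 and 9.04 in anagen and 3.56 and 3.91 in KO (-1.64, SE 0.47, adjusted p = 0.0232). P3h4 was 24.2 and 19.1 CPM in telogen, 15.1 and 17.1 in anagen and 10.7 and 10.9 in KO (-1.05, SE 0.26, adjusted p = 0.0114). Bmp1 was 20.3 and 26.1 CPM in telogen, 22.7 and 18.7 in anagen and 10.05 and 10.9 in KO (-1.19, SE 0.25, adjusted p = 0.00548). P3h3 and P3h4 were likewise not called by DESeq2, whereas Bmp1 kept its call under all 15 alternatives. Lox was 3.89 and 11.5 CPM in telogen, 4.12 and 5.33 in anagen and 2.92 and 1.56 in KO (-1.76, SE 0.61, adjusted p = 0.0485) and was called under only 5 of 14. Adamts2 was 3.29 and 12.4 CPM in telogen, 0.349 and 0.592 in anagen and 0.972 and 0 in KO, a ratio of 14.5 (4.69 to 72.8) on 3 KO UMIs.

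The chains of blood EC-like cells were low in WT. In CPM they lay above the immune-like gauge in both telogen libraries and on either side of it in anagen. As UMIs per cell, the telogen sum was 1.41 and 2.57 in blood EC-like and 1.32 and 1.95 in the deeper immune-like cells. In anagen it was 0.273 and 0.415 against 0.377 and 0.773. The part of depth in the CPM gauge was not tested. The sums of both types were lower in KO. The blood EC-like sum was 193 and 397 CPM in WT telogen and 17.8 and 16.4 in KO, beside 96.2 and 169 and then 1.88 and 5.67 in immune-like cells. The 3 major fibrillar chains were almost absent from the KO cells. Col1a1 was 33.2 and 83.9 CPM in telogen, 3.98 and 10.4 in anagen and 0 and 0.781 in KO, with 2 KO UMIs and a ratio of 163 (44.8 to 1350). Col1a2 was 35 and 77.8 CPM in telogen, 3.7 and 5.41 in anagen and 0.648 and 0.391 in KO, with 3 KO UMIs and a ratio of 105 (35.6 to 511). Col3a1 was 62.5 and 128 CPM in telogen, 8.86 and 15 in anagen and 0.324 and 0 in KO, with 1 KO UMI and a ratio of 532 (95.2 to 21056). In the immune-like cells the same 3 were the members called (0 higher and 3 lower of 22, where 2.15% and 4.11% of all genes were called). Col1a1 was 27.9 and 42.2 CPM in telogen, 6.36 and 16.4 in anagen and 0 and 1.62 in KO there, a ratio of 32.7 (9.04 to 270). Col1a2 was 25.8 and 39.4 CPM in telogen, 8.18 and 7.02 in anagen and 0 and 1.62 in KO, a ratio of 30.5 (8.41 to 252). Col3a1 was 28.3 and 58.5 CPM in telogen, 11.2 and 22.2 in anagen and 0 and 0 in KO, at least 28.0-fold lower in KO on 0 UMIs (a floor of 3 counts over both libraries). All 3 immune-like calls were lost without WT telogen S2 (0 members called). The part of free RNA in the endothelial falls of these chains was not tested, and the chain content of the fibroblast-like cells was lower in the same libraries. The sum of the 11 fibroblast markers in blood EC-like cells was 79.8 and 242 CPM in WT telogen and 14.3 and 9.37 in KO, and in immune-like cells 221 and 287 against 50.7 and 85.1.

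The other chains called in blood EC-like cells were lower as well. Col5a2, the 1 chain called above the gauge in WT, was 34.1 and 24.9 CPM in telogen, 6.63 and 25.8 in anagen and 9.07 and 9.76 in KO (-1.70, SE 0.26, adjusted p = 0.00133). Its call was lost under 3 of 15 alternatives: with types called cell by cell, with all 6 libraries in one fit, and with the Gkn3 and Sema3g cluster added, the last chosen after seeing the data. Col5a3 was 5.08 and 11.8 CPM in telogen, 2.09 and 1.7 in anagen and 2.27 and 0.781 in KO (-2.41, SE 0.61, adjusted p = 0.0139). Col6a3 was 5.08 and 23.6 CPM in telogen, 3.98 and 1.93 in anagen and 1.94 and 0.391 in KO (-3.52, SE 0.86, adjusted p = 0.0116). Col6a1 was 6.87 and 14 CPM in telogen, 1.26 and 0.815 in anagen and 0.324 and 0.391 in KO, a ratio of 29.2 (7.77 to 246). Col8a1 was 5.08 and 8.29 CPM in telogen, 2.16 and 4.96 in anagen and 0.648 and 0.391 in KO, a ratio of 12.5 (4 to 62.9). The calls on Col5a3 and Col6a3 were lost without WT telogen S2, which held the higher chain levels, and without that library 12 members were called in all. When types were called cell by cell instead of by cluster, the log2 ratio of the chain sum was 2.28 nearer to 0, the largest move of any sum under the alternatives. The median over the 8 chains tested was -4.18 and over the 18 processing genes -0.76, with 0.01 over all genes. Of the partner genes 10 of 19 were lower and 1 higher, where 20.9% and 16.9% of all genes were called. Sparc fell by 2.14, Dcn by 4.50, Aebp1 by 1.81 and Bgn by 1.31 on the log2 scale, Lum was at least 12.2-fold lower on 0 KO UMIs, and Mia3, which exports large cargo such as procollagen from the ER, was higher by 0.78.

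An interaction term set the perineurial-like KO effect against that of blood EC-like cells. Of 33 members 4 had a higher value in perineurial-like cells and 2 a lower one (2.63% and 2.46% of all genes), and 3 in all remained without WT telogen S2. Serpinh1 (-1.81) and Ppib (-1.05) fell further in perineurial-like cells. Lox (2.73) and Adamts2 (2.95), like Col3a1 (5.28) and Col1a2 (4.39), had the higher value there, the latter 3 on 1 to 3 UMIs in KO blood EC-like cells.

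In lymphatic EC-like cells 13 of 24 members tested were lower and 2 higher in KO, where 13.3% and 11.9% of all genes were called. This type joined 2 clusters whose mix differed between the groups. The cluster led by Ccl21a and Mmrn1 gave 213 and 196 cells in WT telogen and 410 and 505 in KO. The cluster led by Cldn11 gave 332 and 375 against 280 and 339. The part of this mix was not tested. Serpinh1 was 177 and 177 CPM in telogen, 144 and 142 in anagen and 67.7 and 68.8 in KO (log2 fold change -1.43, SE 0.12, adjusted p = 4.49e-05). Among chains above the gauge in WT, Col8a1 was 19.5 and 28.1 CPM in telogen, 16.1 and 23.9 in anagen and 7.64 and 7.9 in KO (-1.66, SE 0.27, adjusted p = 0.00179). Col5a1 was 18.8 and 25.8 CPM in telogen, 12.3 and 9.63 in anagen and 8.46 and 6.97 in KO (-1.59, SE 0.27, adjusted p = 0.00246). All 3 were lower in both KO libraries than in every WT library. Col5a2 was 26.9 and 21.5 CPM in telogen, 12 and 18 in anagen and 7.37 and 5.81 in KO (-1.94, SE 0.27, adjusted p = 6.95e-04). Col12a1 was 4.25 and 5.47 CPM in telogen, 4.33 and 0.838 in anagen and 0 and 0 in KO, at least 12.8-fold lower on 0 KO UMIs. Col1a1 was 23 and 30.5 CPM in telogen, 6.02 and 15.1 in anagen and 1.09 and 1.39 in KO (-4.43, SE 0.36, adjusted p = 3.53e-05). Col1a1, Col3a1 and Col6a1 were not called against the gauge in WT, and Col1a2 was lower. Col3a1 was 26.9 and 34 CPM in telogen, 9.15 and 29.3 in anagen and 2.73 and 1.16 in KO (-4.04, SE 0.36, adjusted p = 5.64e-05). Col1a2 was 11.3 and 19.1 CPM in telogen, 5.06 and 9.21 in anagen and 0.273 and 0.232 in KO, a ratio of 60.0 (16.1 to 504). Col6a1 was 3.19 and 4.3 CPM in telogen, 0.722 and 2.51 in anagen and 0.819 and 0 in KO, a ratio of 9.87 (2.93 to 51.9). The median over the 8 chains was -3.64, or -3.46 with Col12a1 at its bound, and -0.34 over the 16 processing genes, with 0.02 over all genes.

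In these cells the 11 fibroblast markers summed to 171 and 140.3 CPM in WT telogen and 60.6 and 55.5 in KO, and the 12 blood EC markers to 595 and 609.6 against 1751 and 1521, whose part was not tested. The lymphatic processing genes moved in both directions. Plod1 was 57.7 and 56.7 CPM in telogen, 40.2 and 59.5 in anagen and 84.9 and 96.2 in KO (0.60, SE 0.14, adjusted p = 0.00959). Fkbp10 was 23.7 and 24.2 CPM in telogen, 32.3 and 47.3 in anagen and 34.7 and 41.8 in KO (0.62, SE 0.18, adjusted p = 0.0310). Both were higher than in telogen, and both calls were lost with DESeq2 and without WT telogen S2. P4ha1 was 42.9 and 36.3 CPM in telogen, 34 and 22.6 in anagen and 24.3 and 24.9 in KO (-0.75, SE 0.17, adjusted p = 0.0117). Plod3 was 62.3 and 72.7 CPM in telogen, 65.3 and 74.6 in anagen and 47.2 and 44.4 in KO (-0.62, SE 0.15, adjusted p = 0.0127). Ppib was 522 and 517 CPM in telogen, 494 and 548 in anagen and 408 and 392 in KO (-0.44, SE 0.11, adjusted p = 0.0199). These 3 were lower, by less than 1 on the log2 scale. The calls on P4ha1 and Plod3 were lost with DESeq2, and that on Ppib without either WT telogen library. Bmp1 was 49.6 and 38.3 CPM in telogen, 37.3 and 37.7 in anagen and 31.6 and 31.6 in KO (-0.54, SE 0.18, adjusted p = 0.0483), lost under 9 of 14 alternatives. Leaving out either WT telogen library, or using DESeq2, left 9 members called. Of 16 partner genes 3 were lower (Fn1 by 1.69, Sparc by 0.87 and Aebp1 by 0.75 on the log2 scale) and 2 higher (Ctsk 1.3 and Mia3 0.72). Among all genes 13.3% were called lower and 11.9% higher there, and these partner counts stood near those shares.

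Pericyte-like cells showed 8 of 30 members lower and 0 higher in KO, where 3.46% and 2.75% of all genes were called. Markers of other cells moved with the genotype here. The sum of 12 blood EC markers was 3938 and 3311 CPM in WT telogen and 531 and 1726 in KO, and that of 5 erythroid markers 8839 and 6581 against 37.3 and 18.6. The 12 pericyte markers summed to 9017 and 12918 CPM in WT telogen and 16058 and 10324 in KO. Their part in the result was not tested. Col1a1 was 231 and 382 CPM in telogen, 179 and 572 in anagen and 65.2 and 46.4 in KO (-2.53, SE 0.37, adjusted p = 0.0163). Col1a2 was 322 and 441 CPM in telogen, 221 and 428 in anagen and 87 and 88.2 in KO (-2.23, SE 0.29, adjusted p = 0.0128). Col3a1 was 927 and 840.4 CPM in telogen, 563 and 800.2 in anagen and 115 and 69.6 in KO (-3.33, SE 0.34, adjusted p = 0.00670). Col3a1 and Col6a3, both well above the gauge, fell the most. Col6a3 was 283 and 323 CPM in telogen, 199 and 158 in anagen and 28 and 9.28 in KO (-4.01, SE 0.42, adjusted p = 0.00711). Col6a1 was 211 and 194 CPM in telogen, 212 and 191 in anagen and 96.3 and 60.3 in KO (-1.44, SE 0.31, adjusted p = 0.0382). Serpinh1 was 595 and 627 CPM in telogen, 625 and 463 in anagen and 146 and 135 in KO (-2.23, SE 0.27, adjusted p = 0.00841). The calls on Col1a1, Col1a2 and Col6a1 were lost in cells of at least 500 genes and under 5% mitochondrial UMIs, and that on Col1a1 also without the likely doublets. Ppib was 686 and 659 CPM in telogen, 593 and 519 in anagen and 270.2 and 292 in KO (-1.37, SE 0.25, adjusted p = 0.0245). Pcolce was 249 and 204 CPM in telogen, 205 and 255 in anagen and 49.7 and 65 in KO (-2.12, SE 0.30, adjusted p = 0.0163). The calls on Ppib and Col6a1 were lost without either WT telogen library. Lox, 12.4 and 32.1 CPM in telogen and 137 and 65.0 in KO, was not called (2.12, SE 0.52, adjusted p = 0.0530). The median over the 11 chains was -1.49 and over the 19 processing genes -0.75, with -0.02 over all genes. Of 19 partner genes tested the 3 called, all lower, were Postn (-5.05), Sparc (-1.59) and Ddr2 (-1.40). In immune-like cells the 1 called of 20 was Sparc (-1.88), where 4.11% of all genes were called lower. With KO S1 left out 13 members were called, and with KO S2 left out 19.

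Schwann-like cells in KO (8 and 12 cells) were not compared by a test. Their chain sum was 1354 and 1937 CPM in KO against 9647 and 10412 in WT telogen. Of the KO cells 75 and 41.7% were marked as likely doublets, against 34.8 and 31.0% in WT telogen. In KO S2 the sum of 9 Schwann markers was 2443 CPM, against 11491 and 12328 in WT telogen and 15138 in KO S1, and that of 6 keratinocyte markers 5678 against 36.6, 17.7 and 0. The sum of 4 melanocyte markers was 748 CPM in KO S2, against 101, 132 and 0. The part of these cells in the lower chain sum was not tested. In immune-like cells the 0 processing genes called, of 15 tested, had a median of -0.41, and 3 had an unadjusted p under 0.05, as did 30.3% of all genes. The 7 chains tested there had a median of -5.00, or -2.85 with the 3 at 0 KO UMIs at their bounds. P3h2, given apart, was 19.3 to 31.8 CPM in WT pericyte-like cells, 0 to 38.0 in WT Schwann-like cells and 10.3 to 16.4 in WT blood EC-like cells, and was not called in any KO comparison in which it was tested.

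Across whole libraries the chain level was 8570 and 6948 CPM in WT telogen, 2926 and 3415 in WT anagen and 245 and 294 in Alk1 KO. These totals mix the level within each type with the number of cells of that type. Fibroblast-like cells held 82.0, 79.4, 81.0, 71.4, 55.7 and 70.8% of the chain UMIs in that order of libraries. They were 4.45 and 3.99% of kept cells in WT telogen, 1.74 and 1.74% in WT anagen and 2.10 and 2.91% in KO. Serpinh1 was distributed otherwise. Blood EC-like cells held 12 and 10.7% of its UMIs in telogen, 55.5 and 45.6% in anagen and 55.9 and 50.4% in KO, while these cells were 14.5 and 10.3% of kept cells in telogen, 44.4 and 44.1% in anagen and 30.5 and 26.4% in KO.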

How the data were processed

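Single-cell libraries from 6 mice were read as the deposited matrices of UMI counts per gene and barcode. For these counts the authors aligned reads to mm10 using Cell Ranger 6.0.1. Seurat 4.0 is named in the submitters' processing notes for their own later steps. From these counts, cells with at least 200 and at most 5000 genes and at most 10% mitochondrial UMIs were kept. After log-scaling to 10000 UMIs per cell, 2957 variable genes, with the members, the partner and stress lists and Acvrl1 left out, gave 30 principal components, a Harmony-type correction across libraries and Leiden clusters (resolution 0.6, scanpy 1.11.5), which were named from marker lists. The Scrublet caller marked 3 to 51 cells per library, too few to be of use, so cells stayed in and the top 5% of scores in each library were left out as an alternative.

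Counts were summed per library and type and tested with edgeR 4.0.16 (filterByExpr, TMM, quasi-likelihood, R 4.3.3), adjusted by Benjamini-Hochberg over all genes tested, and called at adjusted p under 0.05 and a fold over 1.3. Types were compared with library as a term, and effects in 2 types with an interaction term. SE and intervals are on the log2 scale, and values are CPM of these sums. Shares have exact binomial intervals, and low ratios exact conditional Poisson intervals, at 95%, covering counting error only. The floor of a count of 0 is 3 counts. With 1 mouse per library and 2 libraries per group, p-values rest on few animals. The steps were tested on simulated data with 200 changed genes.

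The members, and all lists, were chosen with earlier results of these data known. Values in every library were given for the chains and processing genes fixed by name and for each member called between stages or genotypes, other members by range, and partner genes where called, at most 6 per comparison by smallest p. Fibroblast and perineurial marker values, Cdh5 and P3h2 were added as checks after their values were seen. Alternatives were DESeq2 1.42.0, its size factors, no filter on low counts, stricter or looser cell filters, likely doublets left out, finer clusters, types called per cell, a replicate block, 1 fit over all 6 libraries, each library left out, and the joined blood endothelial clusters, the last chosen after seeing the data. Clusters without a name (986 cells) were not analysed here.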

Additional observations from a re-analysis of the deposited data

Results flagged for a closer look

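For 16 results the difference between the Alk1 KO and WT telogen libraries, called the effect here, was unlike in 2 cell types by the interaction term. Genotype cannot be told apart from the other differences between these libraries. Between perineurial-like and fibroblast-like cells the log2 difference of effects was 4.17 for P4ha2 (SE 0.44, edgeR adjusted p = 2.52e-04), 2.96 for Col6a3 (SE 0.33, 3.88e-04), 2.79 for Col3a1 (SE 0.19, 8.61e-06) and 2.73 for Col5a3 (SE 0.43, 0.00371). It was 2.41 for Col6a2 (SE 0.52, 0.0223), 2.13 for Loxl2 (SE 0.36, 0.00635), 2.10 for Col1a2 (SE 0.22, 2.52e-04) and 1.99 for P4ha1 (SE 0.35, 0.00722). For Pcolce it was 1.5 (SE 0.35, 0.0318) and for Ppib 1.19 (SE 0.27, 0.0290). All 10 were positive, that is, less of a fall in perineurial-like cells or, for P4ha2, a rise there beside a fall in fibroblast-like cells.

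Between perineurial-like and blood EC-like cells the log2 difference was -1.81 for Serpinh1 (SE 0.25, edgeR adjusted p = 3.39e-04) and -1.05 for Ppib (SE 0.23, 0.0106). It was 2.73 for Lox (SE 0.63, 0.0158), which was higher in KO in the first type and lower in the second. For Col3a1 it was 5.28 (SE 0.78, 5.17e-04), for Col1a2 4.39 (SE 0.62, 4.14e-04) and for Adamts2 2.95 (SE 0.81, 0.0413), each on 1 to 3 KO UMIs in blood EC-like cells. In WT blood EC-like cells Col3a1 and Col1a2 were not called against immune-like cells, and the part of free RNA was not tested.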

How the results depend on the processing

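Of 279 counts of called members under an alternative, 240 stayed within 1.5 times the reported count and 39 moved. Of 1355 values of members called in a KO comparison 1269 kept their call, 86 lost it and 0 changed direction. Of 120 values of the sums 92 were marked as the same and 28 as moved. The shares of cells depended more on the processing, with 27 of 96 values marked as the same and 69 as moved. In fibroblast-like cells 30 of the 31 calls in KO held under every alternative tried, the exception being Adamts2. With no filter on low counts, the stage comparison called 3 members in perineurial-like, 9 in fibroblast-like, 6 in blood EC-like, 5 in lymphatic EC-like and 5 in immune-like cells, and the KO comparison 14 in pericyte-like and 10 in immune-like cells. DESeq2 called 4 between stages in blood EC-like and 1 in immune-like cells, and 9 in KO in lymphatic EC-like cells. Without likely doublets the stage count was 0 in fibroblast-like and 1 in lymphatic EC-like cells, and in cells of at least 500 genes it was 2 in blood EC-like cells. Leaving out each library in turn gave stage counts of 0 to 5 (perineurial-like), 1 to 7 (fibroblast-like), 0 to 6 (pericyte-like), 0 to 13 (blood EC-like), 0 to 5 (lymphatic EC-like) and 0 to 2 (immune-like), the highest without WT anagen S1 except in immune-like cells, where it came without WT anagen S2. The KO counts were 6 to 19 (pericyte-like), 12 to 22 (blood EC-like), 9 to 14 (lymphatic EC-like) and 0 to 6 (immune-like), and the interactions 2 to 12 against fibroblast-like and 3 to 7 against blood EC-like cells. The lowest KO and interaction counts came without a WT telogen library. With 1 library left in a group, that library was assumed to vary like the others. The cause of these changes was not tested.

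The S numbers of the libraries are shared across groups but belong to different mice, and deviations of same-numbered libraries correlated at -0.15 to 0.16, so they were not taken as pairs. With the number as a replicate block, the stage counts were 1 in perineurial-like, 3 in blood EC-like and 1 in lymphatic EC-like cells. The KO libraries held the fewest UMIs, and low chain counts in their endothelial and immune-like cells limit the ratios there.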
